A study of Mus musculus with 8 samples.

Results

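The peroxiredoxin and thioredoxin genes Prdx1, Prdx2, Prdx3, Prdx4, Prdx5, Prdx6, Txn1, Txn2, Txnrd1 and Txnrd2 were taken by symbol from the expression table of mouse ovarian follicles. All 10 were present, each as 1 row, among 55157 genes. Melatonin libraries came from Kunming mice (an outbred stock) that received melatonin with pregnant mare serum gonadotropin (PMSG, a hormone with follicle-stimulating activity), and control libraries from mice that received normal saline with PMSG. Both groups were sampled at 24 hours after injection and on postnatal day 21, with 4 libraries of type 7 to 8 follicles (late, antral stages in the usual mouse classification) in each group. PMSG was thus given to every animal, no untreated follicles were used here, and the labels give neither a melatonin dose nor whether a library holds 1 animal or a pool. The p-values therefore measure the spread between these libraries, which may be technical in part.

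Peroxiredoxins reduce hydrogen peroxide with a reactive cysteine that is oxidised in the reaction. Thioredoxin returns the oxidised peroxiredoxin to its working form, and thioredoxin reductase, a selenoprotein, recharges thioredoxin with electrons from NADPH. The system runs in parallel in the cytosol (Prdx1, Prdx2, Prdx6, Txn1, Txnrd1) and in mitochondria (Prdx3, Prdx5, Txn2, Txnrd2), while Prdx4 works in the secretory pathway. Prdx6 differs in that it is recharged mainly by glutathione. In the follicle these enzymes act against peroxide formed by respiration and steroid synthesis, and melatonin itself is known as an antioxidant.

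The implied depth was 18553174 to 23649154 fragments assigned to genes in melatonin libraries and 17451116 to 22034273 in control libraries. Levels are in FPKM, a fragment count scaled to exon length and to the library total. Each member value corresponded to a whole number of fragments, between 513 and 6026 per library. Granulosa markers were abundant and the oocyte was present, with Inha (inhibin alpha) at 5445 ± 309 FPKM in melatonin and 6597 ± 641 FPKM in control and Gdf9 (an oocyte growth factor) at 97.9 ± 14.3 FPKM in melatonin and 106.6 ± 19.1 FPKM in control (SD, n = 4 each). The first principal component, with 26.5% of the variance, ran from -17.4 to -5.81 in melatonin and from 0.49 to 29.9 in control libraries.

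Promoter sequences are given for the members with the largest differences between the groups, Prdx1 and Txn1, for Txnrd1, the reductase that serves Txn1, and for Prdx4, whose values differed least. They are RefSeq windows (GRCm38.p6) from 250 bases before to 50 bases after a transcript start, 5′ to 3′ on the gene's strand. Txnrd1 is shown at the second of its 3 starts, the only start of this gene whose window matched a motif named below. Windows were matched for all members but Prdx6. Capitals mark matches on either strand to TGACNNNGC, the core of the antioxidant response element bound by the transcription factor NRF2, to TATAAA, the TATA box, and to GGGCGG, a GC box. The windows lie at chr4:116685349-116685648 (plus strand) for Prdx1, chr4:57956362-57956661 (minus strand) for Txn1, chr10:82858956-82859255 (plus strand) for Txnrd1 and chrX:155338411-155338710 (minus strand) for Prdx4.
Prdx1: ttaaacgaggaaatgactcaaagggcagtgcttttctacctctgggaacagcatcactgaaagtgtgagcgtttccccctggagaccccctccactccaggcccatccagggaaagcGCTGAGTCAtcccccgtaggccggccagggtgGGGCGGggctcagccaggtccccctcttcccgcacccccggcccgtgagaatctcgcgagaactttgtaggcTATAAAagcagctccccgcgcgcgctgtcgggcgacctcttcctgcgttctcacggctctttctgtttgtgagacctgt
Txn1: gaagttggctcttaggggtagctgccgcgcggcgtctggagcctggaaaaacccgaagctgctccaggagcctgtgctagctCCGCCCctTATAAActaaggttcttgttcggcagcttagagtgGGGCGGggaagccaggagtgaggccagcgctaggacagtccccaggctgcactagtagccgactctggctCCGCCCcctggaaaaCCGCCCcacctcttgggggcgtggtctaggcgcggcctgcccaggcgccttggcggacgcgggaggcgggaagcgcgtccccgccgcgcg
Txnrd1: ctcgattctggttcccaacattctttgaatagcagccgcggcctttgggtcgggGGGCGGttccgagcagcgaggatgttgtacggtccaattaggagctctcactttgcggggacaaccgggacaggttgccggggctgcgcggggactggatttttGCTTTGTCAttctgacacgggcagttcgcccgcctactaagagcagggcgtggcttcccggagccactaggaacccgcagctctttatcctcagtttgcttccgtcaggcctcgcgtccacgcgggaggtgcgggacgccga
Prdx4: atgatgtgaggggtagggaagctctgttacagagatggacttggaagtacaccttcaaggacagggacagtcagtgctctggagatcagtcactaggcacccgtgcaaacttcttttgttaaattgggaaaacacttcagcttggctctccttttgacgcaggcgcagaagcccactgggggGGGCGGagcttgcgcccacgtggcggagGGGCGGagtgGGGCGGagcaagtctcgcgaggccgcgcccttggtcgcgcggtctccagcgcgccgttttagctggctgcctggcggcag
TGACNNNGC was found in 2 of the 11 windows of the members, that of Prdx1 (bases -133 to -125 from the start) and the second of Txnrd1 (bases -92 to -84), in both on the reverse strand. The other windows of Txnrd1 held none of the 3 motifs. TGACNNNGC was present in 12.4% of 32851 RefSeq windows of the same length. TATAAA was found in 3 of the 11 windows. It lay at bases -29 to -24 in Prdx1 at bases -160 to -155 in Txn1 and, on the reverse strand, at bases -239 to -234 in Prdx3, and was present in 13.6% of all windows. GGGCGG was present in 9 of the 11 windows, 1 for each member matched, and in 35.7% of all windows. These are matches of letters, and factor binding was not measured.

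Txn1 transcripts were the most abundant of the system and Txnrd2 the least, in every library. Over the 8 libraries the mean levels followed the order Txn1 at 119.9, Prdx2 at 84.8, Prdx1 at 78.0, Prdx4 at 71.3, Prdx3 at 40.1, Prdx5 at 26.6, Prdx6 at 26.0, Txnrd1 at 17.9, Txn2 at 15.4 and Txnrd2 at 6.82 FPKM. The ranges of neighbours overlapped for Prdx2 with Prdx1, Prdx1 with Prdx4, Prdx5 with Prdx6, and Txnrd1 with Txn2. Within libraries, however, Prdx2 was above Prdx1 and Txnrd1 above Txn2 in 8 of 8, Prdx1 above Prdx4 in 6 of 8 and Prdx5 above Prdx6 in 5 of 8. These levels are per kilobase of all annotated exons, from 1051 bases in Txn1 to 7086 bases in Txnrd1, so exons that follicles do not use lower the apparent level of a gene.

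With melatonin, the mean of each of the 10 members lay below its control mean, by small amounts. None passed the threshold. With limma on log2(FPKM + 1), 0 of 14738 tested genes (0%) and 0 of 10 members had an adjusted p under 0.05, and 2821 genes and 5 members had an unadjusted p under 0.05. By limma-voom on recovered fragments 0 of 13752 genes passed, and of 2676 with an unadjusted p under 0.05, 1008 were lower and 1668 higher with melatonin, against 1436 lower and 1385 higher in the limma fit. The members at that p were 4 by limma-voom, all lower. All 10 members exceeded the minimum mean of 1 FPKM and were tested. The 5 members were Prdx1, Txn1, Txnrd1, Prdx2 and Prdx5, each lower with melatonin, where 9.74% of all tested genes were lower at that unadjusted p. Among the 8855 genes averaging 5 FPKM or more, as all members do, the share was 13.7%. The 5 members became 2, Prdx1 and Txn1, without melatonin replicate 1, without melatonin replicate 4, without control replicate 3 or after quantile normalization, and 3 without control replicate 1. Over all 14738 genes 1436 were lower at that p in the full fit. They became 961, 1169, 1115, 1180 and 1265 in the same order of settings. There were 1631 without control replicate 4 and 1464 without melatonin replicate 3, with 5 members in each. What moved the member count was not tested. In 4 members (Prdx1, Prdx2, Txn1 and Txnrd1) every melatonin library was below every control library, as in 5.94% of tested genes. Negative log2 fold changes were found in 10 of 10 members, in 52.5% of tested genes and in 57.9% of those averaging 5 FPKM or more. The median log2 fold change was -0.12 over the members, -0.01 over all tested genes and -0.028 over those averaging 5 FPKM or more. Summed FPKM over all genes was 278096 to 284603 in melatonin and 287731 to 302290 in control libraries. The groups thus differed in this total as well, and its part in the member differences was not tested. After median-ratio scaling 10 members were negative, with a median of -0.113, beside 51.0% of genes.

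**Figure D1:**
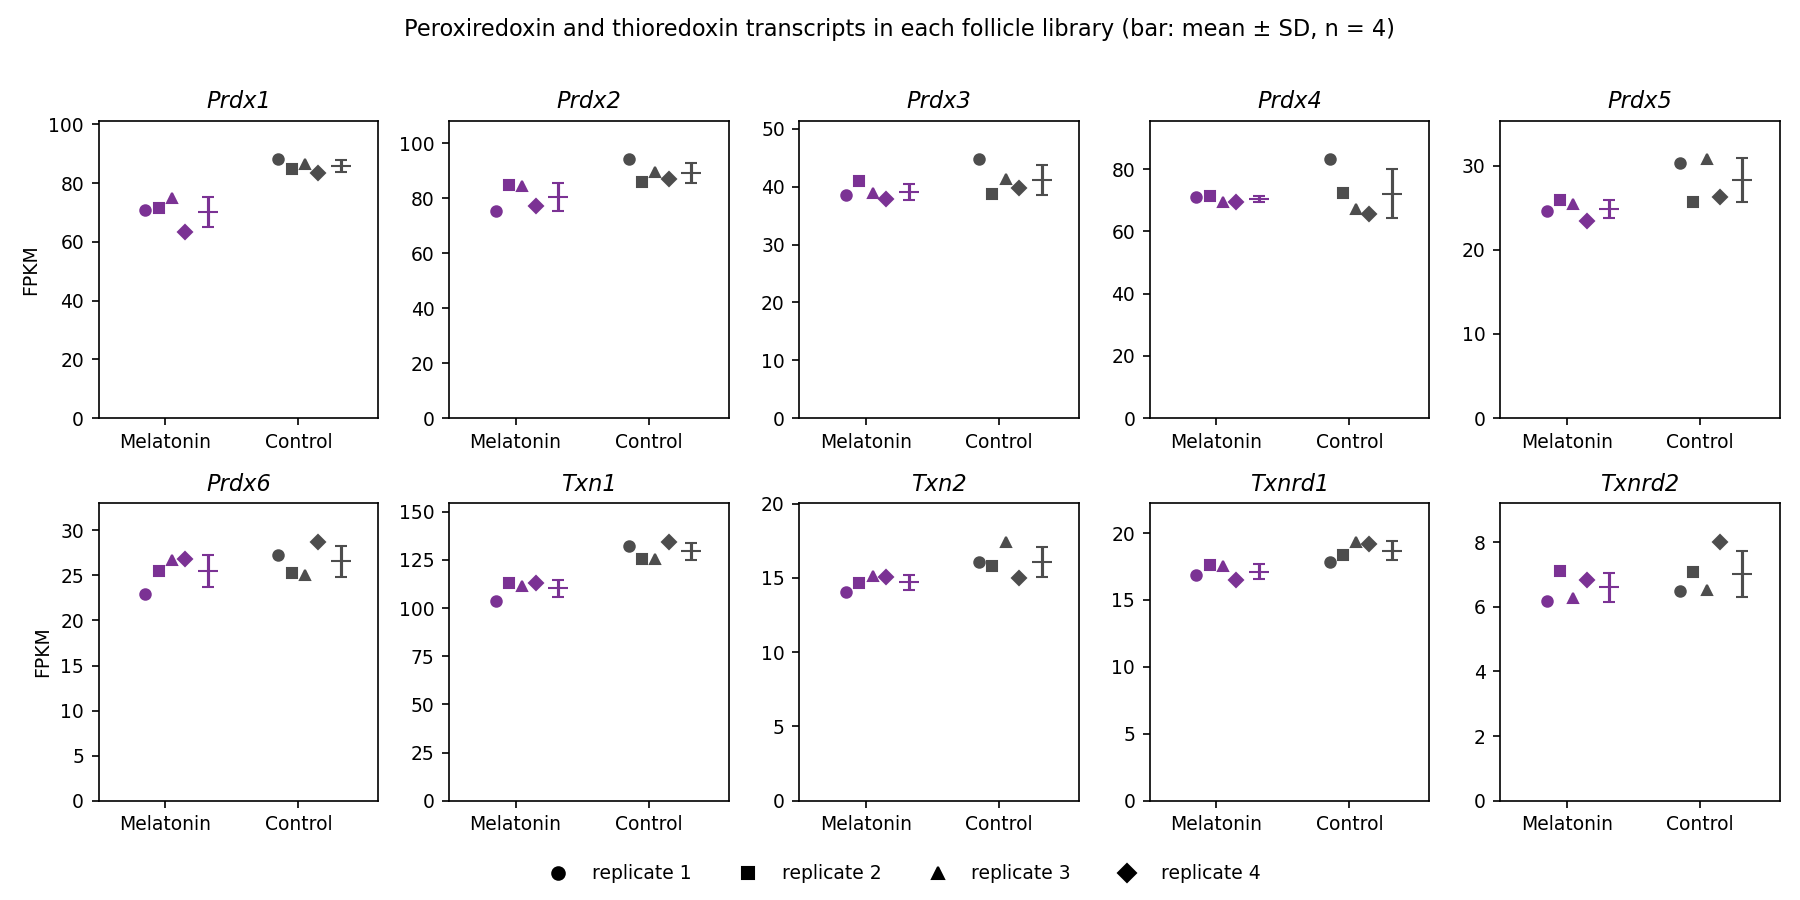
FPKM (vertical axes, from 0) of each member in the 4 melatonin and 4 control libraries, one point per library with a marker shape for each replicate number, and the mean ± SD beside them. The groups do not overlap for Prdx1, Prdx2, Txn1 and Txnrd1, and Prdx4 shows one high control library at 83.2 FPKM.

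Of the cytosolic peroxiredoxins, Prdx1 (ENSMUSG00000028691, mm10 chromosome 4, 116685544 to 116700822) differed most. Prdx1 encodes a peroxidase of the cytosol and nucleus. It had 70.9, 71.5, 75.1 and 63.2 FPKM in melatonin replicates 1 to 4, against 88.1, 84.9, 86.6 and 83.6 FPKM in control replicates 1 to 4. The highest melatonin library was below the lowest control library, and melatonin replicate 4 was the lowest of all. Prdx1 thus had a log2 fold change of -0.29 ± 0.058 (SE, n = 4 each), with a 95% interval from -0.42 to -0.16 (limma, adjusted p = 0.120). Prdx1 has processed pseudogenes that can take or give reads, of which Gm21399 is 98.3% identical over 597 aligned bases and was listed at 1.67 to 3.42 FPKM.

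Prdx2 (chromosome 8, 84969587 to 84974834), a close relative of Prdx1 that is very abundant in red blood cells, had 75.2, 84.9, 84.4 and 77.1 FPKM in melatonin replicates 1 to 4 and 94.1, 86.0, 89.7 and 86.9 FPKM in control replicates 1 to 4. The groups were separate by a small gap, between 84.9 and 86.0 FPKM. For Prdx2 the log2 fold change was -0.15 ± 0.057 (SE; limma, adjusted p = 0.219), and -0.061 after quantile normalization. Summed FPKM of 7 red blood cell markers was 125 to 479 in melatonin and 66.5 to 1545 in control libraries. Control replicate 1, the highest in Prdx2, had the lowest sum, and the part of red blood cells in the Prdx2 values was not tested. Prdx2 exons share 173 bases with Junb and 177 bases with Rnaseh2a on the opposite strand, out of 3050. Junb, an immediate-early transcription factor, was at 24.1 to 45.3 FPKM in melatonin and 47.8 to 73.2 FPKM in control libraries. Whether counting used strand is not stated in the labels, so reads of the shared bases cannot be assigned, and their part in the Prdx2 value was not tested.

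Prdx6 (chromosome 1, 161240112 to 161251219), the peroxiredoxin that also acts on oxidised phospholipids, had 22.9, 25.5, 26.7 and 26.8 FPKM in melatonin and 27.2, 25.3, 24.997 and 28.7 FPKM in control replicates 1 to 4. The groups overlapped, with melatonin replicate 1 the lowest. Prdx6 had a log2 fold change of -0.06 ± 0.067 (SE; 95% interval -0.21 to 0.09; limma, adjusted p = 0.660).

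The mitochondrial peroxiredoxins were also lower on average, with overlapping groups. Prdx3 (chromosome 19, 60864051 to 60874556), which is located in mitochondria, had 38.7, 41.1, 38.9 and 37.9 FPKM in melatonin and 44.8, 38.8, 41.3 and 39.7 FPKM in control replicates 1 to 4. Its log2 fold change was -0.07 ± 0.054 (SE; 95% interval -0.19 to 0.06; limma, adjusted p = 0.513). Prdx5 (chromosome 19, 6906697 to 6910106), found in mitochondria, peroxisomes and cytosol, had 24.6, 25.9, 25.5 and 23.5 FPKM in melatonin and 30.3, 25.7, 30.7 and 26.3 FPKM in control replicates 1 to 4. Control replicates 1 and 3 were high in Prdx5 while control replicate 2 overlapped the melatonin libraries. For Prdx5 the log2 fold change was -0.18 ± 0.069 (SE; 95% interval -0.33 to -0.02; limma, adjusted p = 0.229), and -0.099 once trends with GC content and exon length were taken out of each library. Prdx5 shares 409 of its 2139 exon bases with Trmt112 on the opposite strand, which was at 24.9 to 28.5 FPKM in melatonin and 27.3 to 29.9 FPKM in control.

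Prdx4 (chromosome X, 155323918 to 155340754), the peroxiredoxin of the endoplasmic reticulum that passes oxidising power to protein disulfide isomerases, differed least. It had 71.1, 71.5, 69.5 and 69.5 FPKM in melatonin and 83.2, 72.3, 67.3 and 65.7 FPKM in control replicates 1 to 4. The melatonin libraries lay inside the control range. Their coefficient of variation was 1.51%, where counting error alone gives 1.79%, against 10.9% in control libraries. Prdx4 had a log2 fold change of -0.03 ± 0.073 (SE; 95% interval -0.19 to 0.14; limma, adjusted p = 0.858). It was 0.042 without control replicate 1, 0.072 after quantile normalization and 0.0082 without trends of GC content and length, so its sign depended on the setting.

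Of the thioredoxins, Txn1 (ENSMUSG00000028367, chromosome 4, 57943373 to 57956411), the cytosolic electron donor of the peroxiredoxins, was the member after Prdx1 in size of difference. It had 103.6, 113.0, 111.3 and 113.2 FPKM in melatonin and 132.2, 125.7, 125.6 and 134.4 FPKM in control replicates 1 to 4. The groups did not overlap, at 110.3 ± 4.53 FPKM in melatonin and 129.5 ± 4.49 FPKM in control (SD, n = 4 each). The log2 fold change was -0.23 ± 0.049 (SE; 95% interval -0.34 to -0.12; limma, adjusted p = 0.121). Txn2 (chromosome 15, 77915047 to 77929006), the mitochondrial thioredoxin, had 14.0, 14.7, 15.1 and 15.05 FPKM in melatonin and 16.1, 15.8, 17.4 and 14.99 FPKM in control replicates 1 to 4. Control replicate 4 lay within the melatonin range. The Txn2 log2 fold change was -0.12 ± 0.054 (SE; 95% interval -0.24 to 0.0045; limma, adjusted p = 0.275), and -0.076 once trends with GC content and exon length were taken out.

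Of the reductases, Txnrd1 (chromosome 10, 82833951 to 82897712), the cytosolic enzyme, had 16.8, 17.6, 17.5 and 16.5 FPKM in melatonin and 17.9, 18.4, 19.3 and 19.2 FPKM in control replicates 1 to 4. The highest melatonin library was just below the lowest control library. For Txnrd1 the log2 fold change was -0.12 ± 0.045 (SE; 95% interval -0.22 to -0.02; limma, adjusted p = 0.218). Txnrd2 (chromosome 16, 18426384 to 18479073), the mitochondrial enzyme, had 6.18, 7.12, 6.28 and 6.83 FPKM in melatonin and 6.49, 7.07, 6.54 and 8.02 FPKM in control replicates 1 to 4. Control replicate 4 was high and the other control libraries lay within the melatonin range. The log2 fold change was -0.08 ± 0.075 (SE; 95% interval -0.25 to 0.10; limma, adjusted p = 0.602). The third reductase gene, Txnrd3, which joins a glutaredoxin domain to the reductase, was at 5.33 ± 0.44 FPKM in melatonin and 6.05 ± 0.21 FPKM in control (SD, n = 4 each; limma, adjusted p = 0.235).

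**Figure D2:**
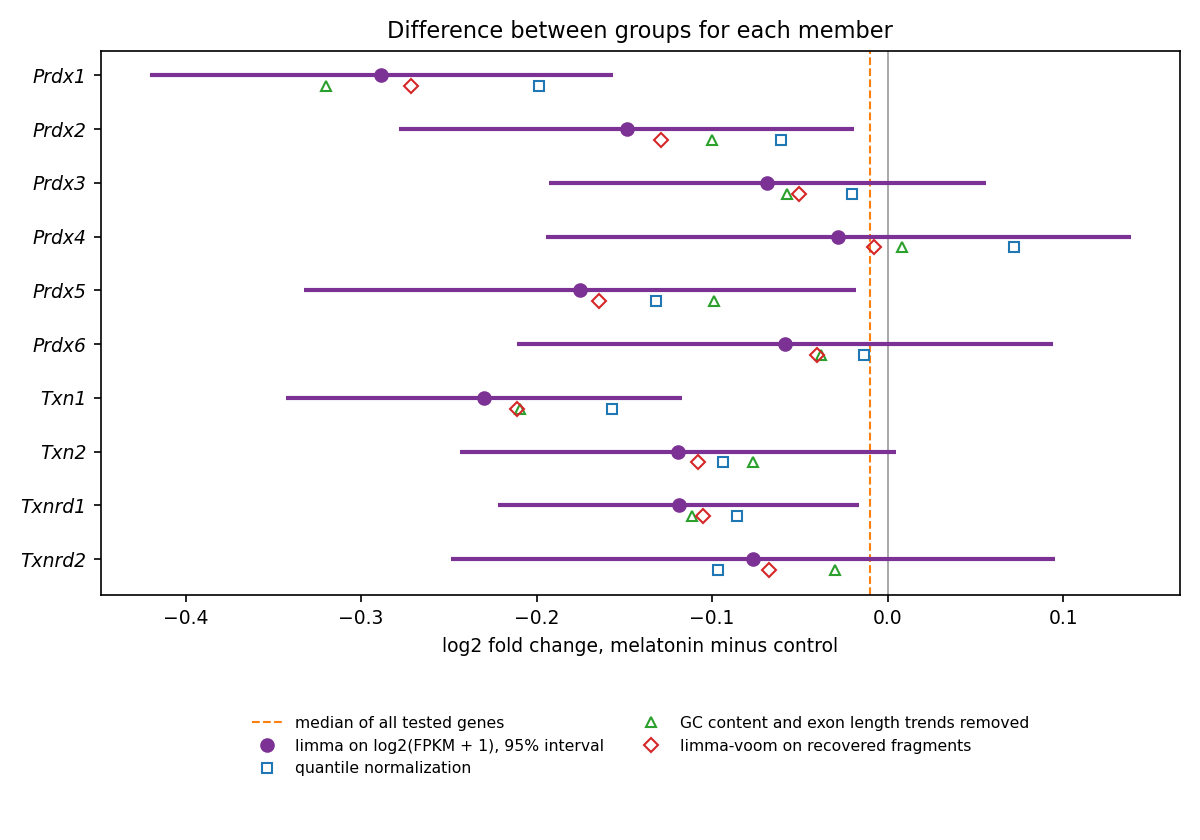
Log2 fold change of melatonin minus control (horizontal axis) for each member, with the 95% interval of the limma fit as a bar and open symbols for 3 other ways to process the values. The dashed line is the median of all tested genes at -0.01, and the intervals of Prdx1 and Txn1 lie farthest below it.

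Smaller differences also varied between settings. Over 17 alternatives the log2 fold change ranged from -0.096 to -0.020 for Prdx3, from -0.086 to -0.010 for Prdx6 and from -0.11 to -0.020 for Txnrd2, none past the threshold.

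Granulosa cell markers were lower on average, with 6 of 6 negative, beside 52.5% of all tested genes. Among tested genes averaging 5 FPKM or more the negative share was 57.9%. Their summed levels were 5645 to 6252 FPKM in melatonin and 6518 to 8240 FPKM in control libraries. Inha, averaging 6021 FPKM, made up most of this sum, and only Inha separated the groups. Fshr, Foxl2, Amh, Amhr2 and Gata4 overlapped, with Foxl2 at 55.2 FPKM in control replicate 4 and 58.0 to 70.6 FPKM in melatonin. Theca markers summed to 32.8, 31.2, 32.7 and 60.0 FPKM in melatonin and 63.0, 55.8, 57.4 and 60.3 FPKM in control replicates 1 to 4. Of these markers 5 of 6 were negative, and only melatonin replicate 4 reached the control range. Oocyte markers, negative in 8 of 8, overlapped, at 282 to 368 FPKM in melatonin and 294 to 464 FPKM in control. Leukocyte markers summed to 17.9 to 30.6 FPKM in melatonin and 19.7 to 108 FPKM in control, with 4 of 4 tested negative. Endothelial markers summed to 4.86 to 7.30 FPKM in melatonin and 6.12 to 9.38 FPKM in control, with 3 of 3 tested negative. Stromal and smooth muscle markers summed to 46.7 to 78.5 FPKM in melatonin and 51.4 to 95.2 FPKM in control, with 5 of 6 negative. Of red blood cell markers 4 of 5 tested were negative, so most tested markers were negative in every list and the counts are particular to none. No marker of any list was at 0 in all libraries. In whole follicles, fewer cells of a type and less RNA per cell cannot be told apart, and the part of these cell types in the member values was not tested.

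Because FPKM depends on the rest of a library, 3 mitochondrial members were also set against 1 cytosolic counterpart each within each library. Prdx3 was set against Prdx1 only, the member with the largest difference, and not against Prdx2 or Prdx6. The log2 ratio of Prdx3 to Prdx1 was -0.86, -0.79, -0.93 and -0.72 in melatonin and -0.96, -1.11, -1.05 and -1.05 in control replicates 1 to 4. The groups did not overlap, and the melatonin mean was higher by 0.22, so Prdx1 was lower relative to Prdx3. The two-sided exact permutation test gave p = 0.0286, the smallest that 70 assignments allow, and 0.0857 after adjustment over the 3 ratios, the lowest value that 1 ratio alone can reach in this design. The log2 ratio of Txn2 to Txn1 was -2.80, -2.86, -2.80 and -2.83 in melatonin and -2.96, -2.91, -2.78 and -3.08 in control replicates 1 to 4. Control replicate 3 was above every melatonin library, and the difference of 0.11 did not pass (exact permutation p = 0.171, adjusted p = 0.257). For Txnrd2 to Txnrd1 the ratio averaged -1.25 ± 0.089 in melatonin and -1.30 ± 0.11 in control (SD, n = 4 each; exact permutation p = 0.6, adjusted p = 0.6). Its groups overlapped, with control replicate 3 the lowest library at -1.43, and without that library the difference of 0.042 became -0.0029.

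**Figure D3:**
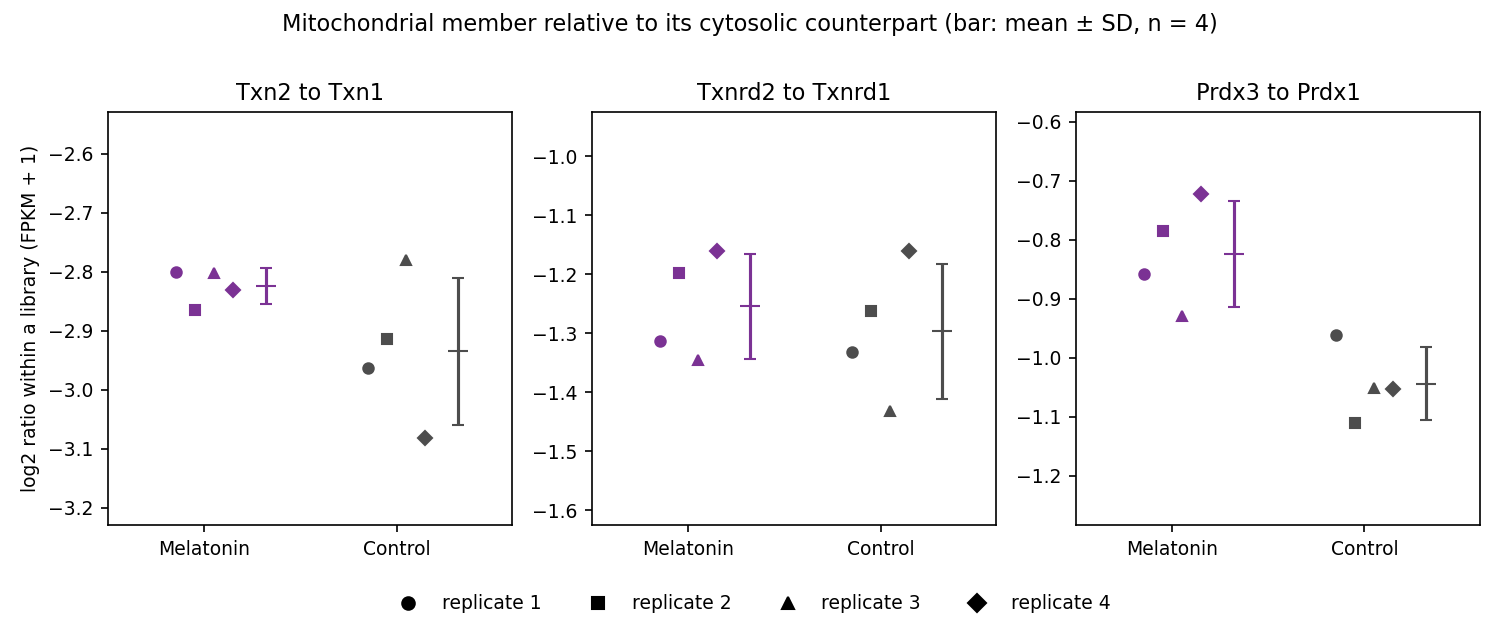
Log2 ratio of FPKM + 1 within each library (vertical axes, each spanning the same distance) for the mitochondrial member over its cytosolic counterpart, one point per library with mean ± SD. The groups separate for Prdx3 to Prdx1, where melatonin libraries lie between -0.93 and -0.72 and control libraries between -1.11 and -0.96.

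Summed over the 6 peroxiredoxins, the level was 303, 320.4, 320.1 and 298 FPKM in melatonin and 368, 333, 341 and 331 FPKM in control replicates 1 to 4. Every melatonin sum was below every control sum. Of this sum Prdx1 made up 22.6% ± 1.05 in melatonin and 25.04% ± 0.72 in control (SD, n = 4 each). Prdx4 made up 22.7% ± 0.82 in melatonin and 21.0% ± 1.41 in control. The share of Prdx2 was 25.9% ± 0.77 in melatonin and 26.0% ± 0.35 in control. The mitochondrial pair Prdx3 and Prdx5 held 20.6% ± 0.36 in melatonin and 20.2% ± 0.75 in control. The shares are a description of the members chosen here and were not tested.

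**Figure D4:**
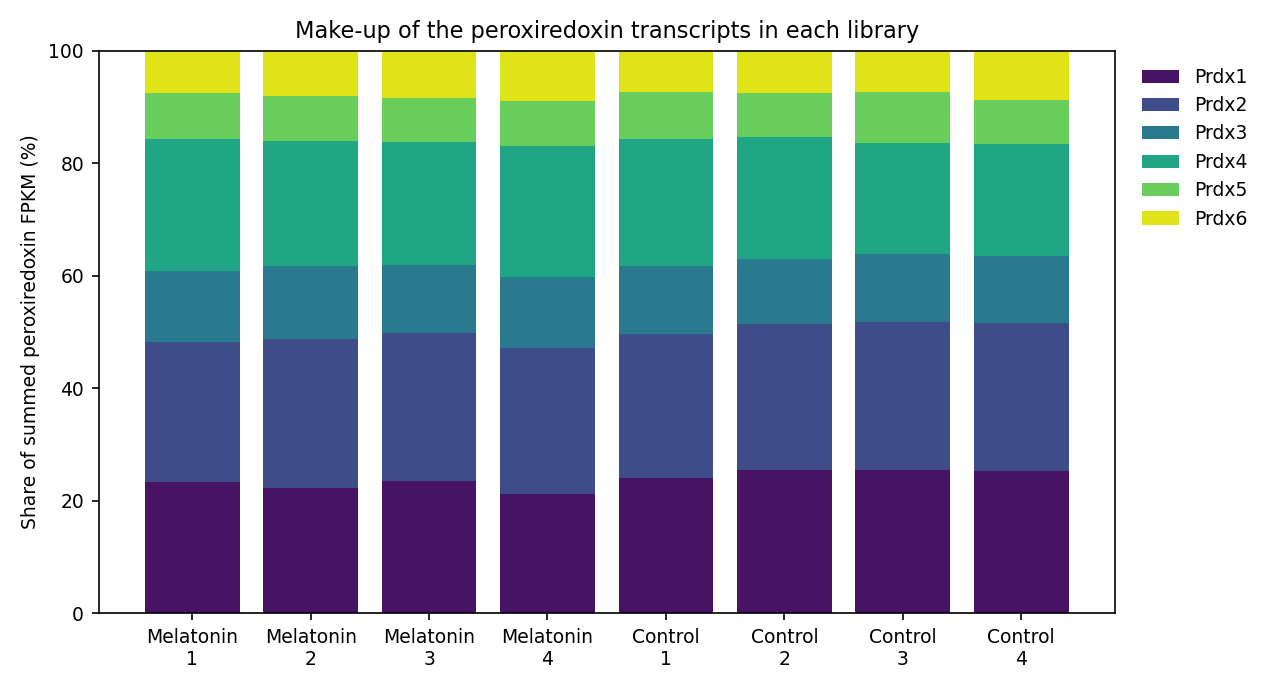
Share of each peroxiredoxin in the summed FPKM of all 6 (vertical axis, percent), one bar per library. The Prdx1 segment spans 21.2% to 23.5% in melatonin and 24.0% to 25.5% in control libraries.

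Genes around the system were read from 5 lists. Of regulators of the system and clients of thioredoxin, 0 of 21 tested genes had an adjusted p under 0.05, while by unadjusted p under 0.05 (limma) 6 genes had lower and 2 had higher values, where 9.74% of all tested genes were lower and 9.4% higher. The list median was -0.099. Txnl1, a thioredoxin-like protein of the proteasome, had 64.2, 75.2, 68.9 and 70.8 FPKM in melatonin and 82.3, 82.3, 80.6 and 79.0 FPKM in control replicates 1 to 4, with no overlap. Of all tested genes 5.94% had every melatonin library below every control library. The Txnl1 log2 fold change was -0.22 ± 0.054 (SE; limma, adjusted p = 0.140). Txndc12, a thioredoxin-like protein of the endoplasmic reticulum, was at 24.1 ± 1.18 FPKM in melatonin and 27.6 ± 1.11 FPKM in control (adjusted p = 0.147). Txnip, the thioredoxin-interacting protein that binds and inhibits thioredoxin, had 108.7, 121.3, 118.5 and 125.0 FPKM in melatonin and 163.3, 130.8, 111.6 and 135.5 FPKM in control replicates 1 to 4. Control replicate 1 was high, the groups overlapped, and the adjusted p was 0.392. Srxn1, sulfiredoxin, which rescues overoxidised peroxiredoxins, was rare, at 0.84, 0.81, 0.88 and 0.68 FPKM in melatonin and 1.29, 1.36, 1.96 and 0.80 FPKM in control replicates 1 to 4. Its log2 fold change on the log2(FPKM + 1) scale was -0.37 ± 0.15 (SE; limma, adjusted p = 0.242), and control replicate 4 lay within the melatonin range. Nfe2l2, which encodes NRF2 and was picked after its values were seen, was at 18.6 ± 1.28 FPKM in melatonin and 18.3 ± 1.75 FPKM in control (adjusted p = 0.896).

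Glutaredoxins and glutathione partners, which run beside the thioredoxins, had 8 tested genes with a median of -0.17. By unadjusted p 3 of them were under 0.05 in the lower direction and 1 in the higher, beside 9.74% and 9.4% of all tested genes. Gpx4, the peroxidase of membrane lipids, was at 74.4 ± 5.05 FPKM in melatonin and 92.0 ± 9.95 FPKM in control (SD, n = 4 each; limma, adjusted p = 0.148), and control replicate 4 at 78.9 FPKM overlapped the melatonin libraries. Glrx5, a mitochondrial glutaredoxin of iron-sulfur cluster assembly, was at 15.8 ± 0.97 FPKM in melatonin and 17.7 ± 0.41 FPKM in control (adjusted p = 0.176). Gsr, glutathione reductase, was at 15.3 ± 1.82 FPKM in melatonin and 16.7 ± 1.45 FPKM in control (adjusted p = 0.516).

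In thiol oxidation of the endoplasmic reticulum, where Prdx4 acts, 16 genes were tested with a median of -0.086. By unadjusted p 2 of them were under 0.05 in the lower direction and 1 in the higher, where all tested genes gave 9.74% and 9.4%. All 16 averaged 5 FPKM or more, and among all such genes the lower share was 13.7%. Tmx2, a membrane thioredoxin-like protein, was at 20.0 ± 0.64 FPKM in melatonin and 22.4 ± 0.71 FPKM in control (SD, n = 4 each; limma, adjusted p = 0.148). Pdia4, a disulfide isomerase, was at 207 ± 3.86 FPKM in melatonin and 236 ± 13.1 FPKM in control (adjusted p = 0.150). Neither gene overlapped between the groups, where 5.94% of all tested genes had every melatonin library below every control library.

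For the supply of NADPH, the electron source of the reductases, 13 genes were tested with a median of -0.095. By unadjusted p 5 of them were under 0.05 in the lower direction and 0 in the higher, beside 9.74% and 9.4% of all tested genes. Idh1, the cytosolic isocitrate dehydrogenase, had 47.0, 47.3, 47.2 and 52.5 FPKM in melatonin and 55.5, 57.2, 63.4 and 59.0 FPKM in control replicates 1 to 4. Its groups did not overlap, where 5.94% of all tested genes had every melatonin library below every control library. The Idh1 log2 fold change was -0.27 ± 0.058 (SE; limma, adjusted p = 0.121). Me1, the cytosolic malic enzyme, was at 23.1 ± 2.34 FPKM in melatonin and 28.7 ± 2.36 FPKM in control (adjusted p = 0.147). Nnt, the mitochondrial transhydrogenase, has 2 rows, of which 1 is listed at 0 throughout. The other was below the filter, at 0.69 to 1.41 FPKM in melatonin and 0.50 to 0.77 FPKM in control libraries, and was not tested.

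The machinery that inserts selenocysteine, which the reductases need, had a positive median of 0.088. Of 9 tested genes 3 had a negative log2 fold change, beside 52.5% of all tested genes. By unadjusted p 2 were under 0.05 in the lower direction and 1 in the higher, where all tested genes gave 9.74% and 9.4%. None of these 4 lists held a gene with an adjusted p under 0.05. Secisbp2l, a relative of the selenocysteine insertion factor Secisbp2, had 12.3, 12.1, 11.9 and 12.2 FPKM in melatonin and 10.1, 9.65, 10.02 and 9.76 FPKM in control replicates 1 to 4. Every melatonin library was above every control library, as in 853 of 14738 tested genes. The Secisbp2l log2 fold change was 0.27 ± 0.040 (SE; limma, adjusted p = 0.120), and it was named for the smallest p of its list. Sephs2, which makes the selenium donor, was at 7.54 ± 0.61 FPKM in melatonin and 8.80 ± 0.48 FPKM in control (adjusted p = 0.172).

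**Figure D5:**
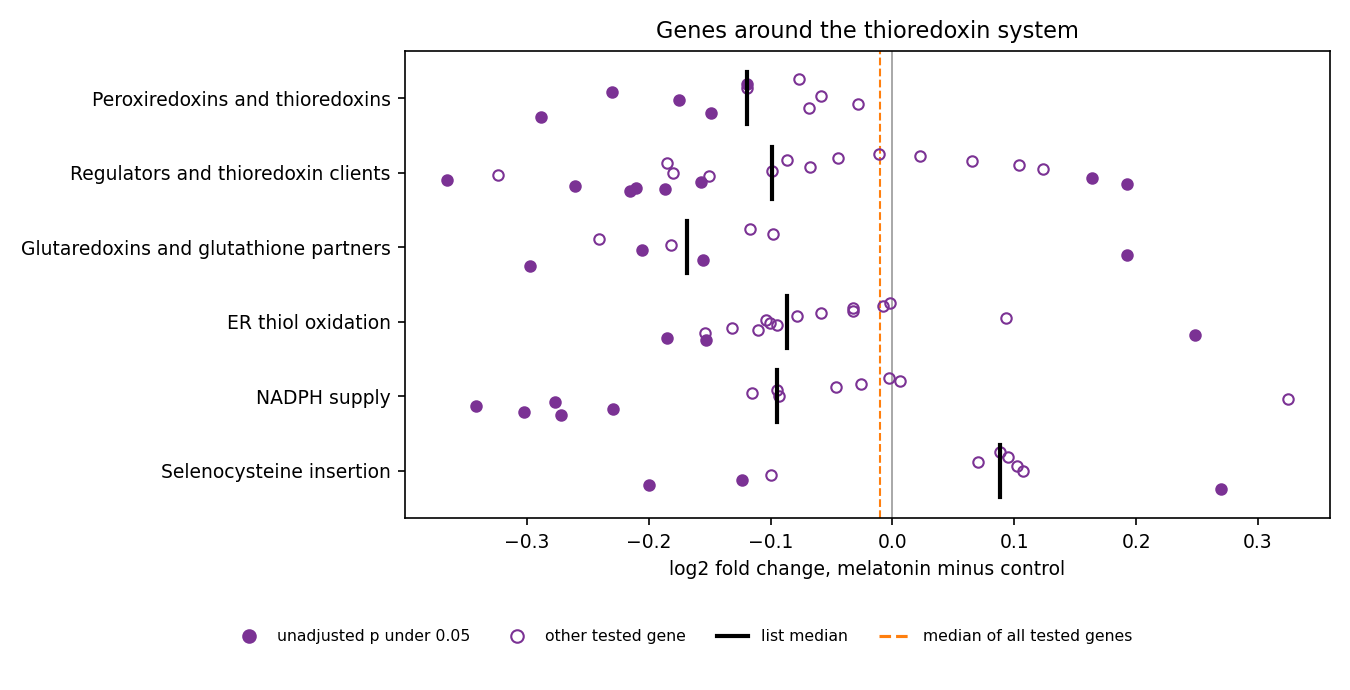
Log2 fold change of melatonin minus control (horizontal axis) for each tested gene of the members and of 5 lists, filled where the unadjusted p was under 0.05, with the list median as a black line. The medians lie between -0.17 and -0.086 for the members and 4 of the lists and at 0.088 for selenocysteine insertion, beside -0.01 for all tested genes.

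The genes whose library profiles were most like those of Prdx1 and Txn1 were sought among 5673 genes averaging 10 FPKM or more. The measure was the root mean square difference of log2(FPKM + 1) over the 8 libraries, after centring each gene on its mean. Nearest to Prdx1 were Mrps12 at 0.040, Psmb6 at 0.041, Tomm22 at 0.043 and Myg1 at 0.043, where the median gene was at 0.172. Mrps12 is a mitochondrial ribosomal protein, Psmb6 a proteasome subunit and Tomm22 a mitochondrial import receptor. Nearest to Txn1 were Cox8a at 0.040, Carhsp1 at 0.042, 2610524H06Rik at 0.043 and Rpl7l1 at 0.044, where the median gene was at 0.145. Cox8a is a subunit of cytochrome c oxidase. Txn1 itself was at 0.095 from Prdx1, and Prdx2, at 0.090, was the member nearest to Prdx1.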

How the data were processed

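Messenger RNA of type 7 to 8 follicles was measured in 4 melatonin and 4 control libraries, made with a NEBNext Ultra RNA kit per the labels' protocols. The submitters' processing notes name HISAT2 2.0.5 as a tool and mm10 as the build. The sources used here give no counting tool, annotation or strand setting. The authors deposited FPKM per gene, per the file headers, and their series table (55157 genes) differed from the sample files in 0 cells. Fragments were recovered from FPKM and exon lengths of GENCODE M21 (54409 identifiers matched), where 98.8% of values up to 30 fragments were whole within 0.05. Positions are mm10.

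The 14738 genes averaging 1 FPKM or more were fitted on log2(FPKM + 1) in R 4.3.3 with limma 3.58.1 (lmFit and eBayes, trend on), with group as the only term, Benjamini-Hochberg adjustment over all of them and a threshold of 0.05. The scale understates changes of low genes. Ratios were tested by exact permutation over 70 assignments. The fit was tested on simulated data. The labels name no batch. Near-identical copies were sought with BLAST 2.17.0 (at least 85% identity over 150 bases), not all exon overlaps are reported here, and tables and plots used Python 3.11.15, pandas 2.3.3 and matplotlib 3.10.9.

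The members, lists and tests were chosen with earlier results of these data known, so no test over the list was made. Named genes are the members, their copies, the 2 genes of each list with the smallest p, Txnip, Srxn1, Gsr, Nnt and Sephs2, the 4 genes nearest in profile to Prdx1 and to Txn1, and the most abundant cell markers. Genes that overlap member exons were named by position, and Nfe2l2 was added after its values were seen. Alternatives were other pseudocounts, filters and scalings, array weights, a replicate block, leaving out each library, limma-voom on recovered fragments (13752 genes) and removal of trends with GC content and exon length (splines with 5 degrees of freedom, 14392 genes).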

Additional observations from a re-analysis of the deposited data

How the results depend on the processing

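Under the 17 alternative settings of the gene fit, 9 or 10 members were negative and 0 members had an adjusted p under 0.05 (limma), with adjusted p from 0.087 to 0.313 for Prdx1 and from 0.090 to 0.313 for Txn1. The member median ranged from -0.131 to -0.088. Over all genes, 1 passed with no filter, and 0 to 1 when 1 library was left out (1 without control replicate 1). The 5 members at an unadjusted p under 0.05 became 2 after quantile normalization. They were 3 with trends of GC content and length removed, beside 1304 lower of 14392 genes. Leaving out 1 library gave 2 to 5 (2 without melatonin replicate 1 or 4 or control replicate 3, and 3 without control replicate 1). The members numbered 6 with no filter, beside 1873 lower of 34898 genes, and 6 with array weights, beside 1588 lower of 14738 genes. In the main fit a threshold of 0.01 left 2 members (Prdx1 and Txn1), with 924 genes in all. The cause of these moves was not tested. Prdx4 was positive after quantile normalization (0.072) and removal of trends (0.0082), and ranged from -0.070 to 0.042 (without control replicate 1) when 1 library was left out. Leaving out 1 library gave differences of 0.186 to 0.255 for Prdx3 to Prdx1, 0.061 to 0.162 for Txn2 to Txn1 and -0.0029 (without control replicate 3) to 0.088 for Txnrd2 to Txnrd1. Their permutation p-values can hardly pass an adjusted threshold at this sample size and say nothing about stability. With the replicate number as a replicate block, 3 members had an unadjusted p under 0.05, all lower, beside 1407 lower of 14738 genes. Same-numbered libraries deviated together with correlations of -0.103 to 0.151 and 2 of 4 matched best to their own number, so the numbers were not taken as pairs. At 513 to 777 fragments, counting error in Txnrd2 was about 4% per library.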

Other observations

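Single libraries took the extremes of several members. Melatonin replicate 1 was the lowest of the 8 libraries in 5 members and melatonin replicate 4 in 4, while control replicate 1 was the highest in 4 members and control replicates 3 and 4 in 3 each. Control replicate 3 also held the highest summed markers of red blood cells, at 1545 FPKM, and of leukocytes, at 108 FPKM. Its Prdx2 level was 89.7 FPKM, and a relation of Prdx2 to these markers was not tested.

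The spread between libraries exceeded counting error in every member and group except Prdx4 in melatonin. The coefficient of variation of Prdx1 was 7.13% in melatonin and 2.32% in control libraries, where counting error alone gives 1.49% in melatonin and 1.38% in control. For Txn1 it was 4.11% in melatonin and 3.47% in control libraries, where counting error gives 2.02% in melatonin and 1.91% in control.

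Other copies of the members were at low levels. Tdpx-ps1, a pseudogene 96.3% identical to Prdx2 over 597 aligned bases, was listed at 0.28 to 0.96 FPKM. Prdx6b was listed at up to 0.016 FPKM, Prdx6-ps2 at up to 0.122 FPKM, Prdx2-rs3 at up to 0.084 FPKM, and Txn-ps1 at 0 in every library.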
